A study of Mus musculus with 4 samples.

Results

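The 40 genes described here drive the cell cycle: they license and copy DNA, supply nucleotides, move the cell from one phase to the next and divide the chromosomes. They were taken by symbol from a list of replication and mitosis genes, and no measured value was part of that rule. The list was, however, chosen with earlier results of these data known. All 40 were found among the 55401 genes of the deposited table, and all 40 had enough reads to be tested.

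Cells pass through division in a fixed order. D-type and E-type cyclins release E2F transcription factors, which switch on the helicase and nucleotide genes of S phase, and cyclin A, cyclin B and Cdk1 then carry the cell into mitosis, where Aurora and Polo-like kinases, the spindle checkpoint and the anaphase-promoting complex separate the chromosomes. Follicular B (FOB) cells of the spleen are mostly resting cells that recirculate until they meet antigen, whereas germinal centre (GC) B cells are among the fastest dividing cells of the body.

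RNA was sequenced from FOB cells sorted from the spleens of 7-week-old C57BL/6 mice, in 2 libraries per genotype. The controls were Hnrnpf fl/fl with no Cre (WT1 and WT2), and the knockouts were Hnrnpf fl/fl with a heterozygous Cre knock-in active in B lineage cells (HFKO1 and HFKO2), which removes exon 4 of Hnrnpf. Both genotypes carry the floxed Hnrnpf alleles. As the controls lack the Cre allele, loss of Hnrnpf and presence of that allele cannot be told apart. The sort gate was B220+CD93-CD23highCD21low, and no mouse is described as immunised for these libraries. Whether a library held 1 animal or several is not given in the sources used here, so p-values measure only the spread between these libraries. In bulk RNA, fewer cells of a type and less RNA per cell cannot be told apart.

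The libraries held 15698567 to 18908963 counted read pairs. Hnrnpf had 5780 and 6634 counts in WT1 and WT2 against 1167 and 1194 in HFKO1 and HFKO2, 20.1% of the WT level. The defining B cell genes Cd79a, Cd79b, Ms4a1, Pax5, Ighd and Fcer2a (CD23, one of the sorted proteins) were abundant in all 4 libraries, with mean levels from 144 to 1693 FPKM (fragments scaled to exon length and to library size). Of 7 follicular markers, Ighd and Fcer2a rose by 0.28 and 0.22 on the log2 scale and Ms4a1 and Pax5 fell by 0.29 and 0.20 by edgeR, while Cd79a, Cd79b and Ptprc were not called, and limma called 0 of the 7. Cd93, whose protein the gate excluded, was detected at 138 and 222 counts in WT against 261 and 354 in HFKO, and it was higher in HFKO (log2 fold change 0.85, SE 0.16, adjusted p = 0.0066 by edgeR, 0.171 by limma). T cell genes were present at a low level.

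Together the 40 genes took 0.121% and 0.137% of all counts in WT1 and WT2 and 0.138% and 0.119% in HFKO1 and HFKO2. Their levels, given as FPKM so that genes of different length can be set side by side, ran from 0.438 to 44.3 FPKM. Pcna, the sliding clamp that holds DNA polymerase on its template, was the most abundant at a mean of 44.3 FPKM, followed by Cdt1 at 29.2, the 6 Mcm genes at 11.2 to 21.1, Ccnd3 at 17.6 and Tk1 at 11.8. Most mitotic genes were lower, as were Cdc6, Gins2, Tyms and Ccne2. Bub1, a spindle checkpoint kinase, had the lowest mean of all at 0.438 FPKM, and Cdk1, Ccnb1, Birc5 and Cenpe were each under 1 FPKM. Cenpa, the histone H3 variant of centromeres, was higher than the other mitotic genes at 10.5 FPKM.

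**Figure D1:**
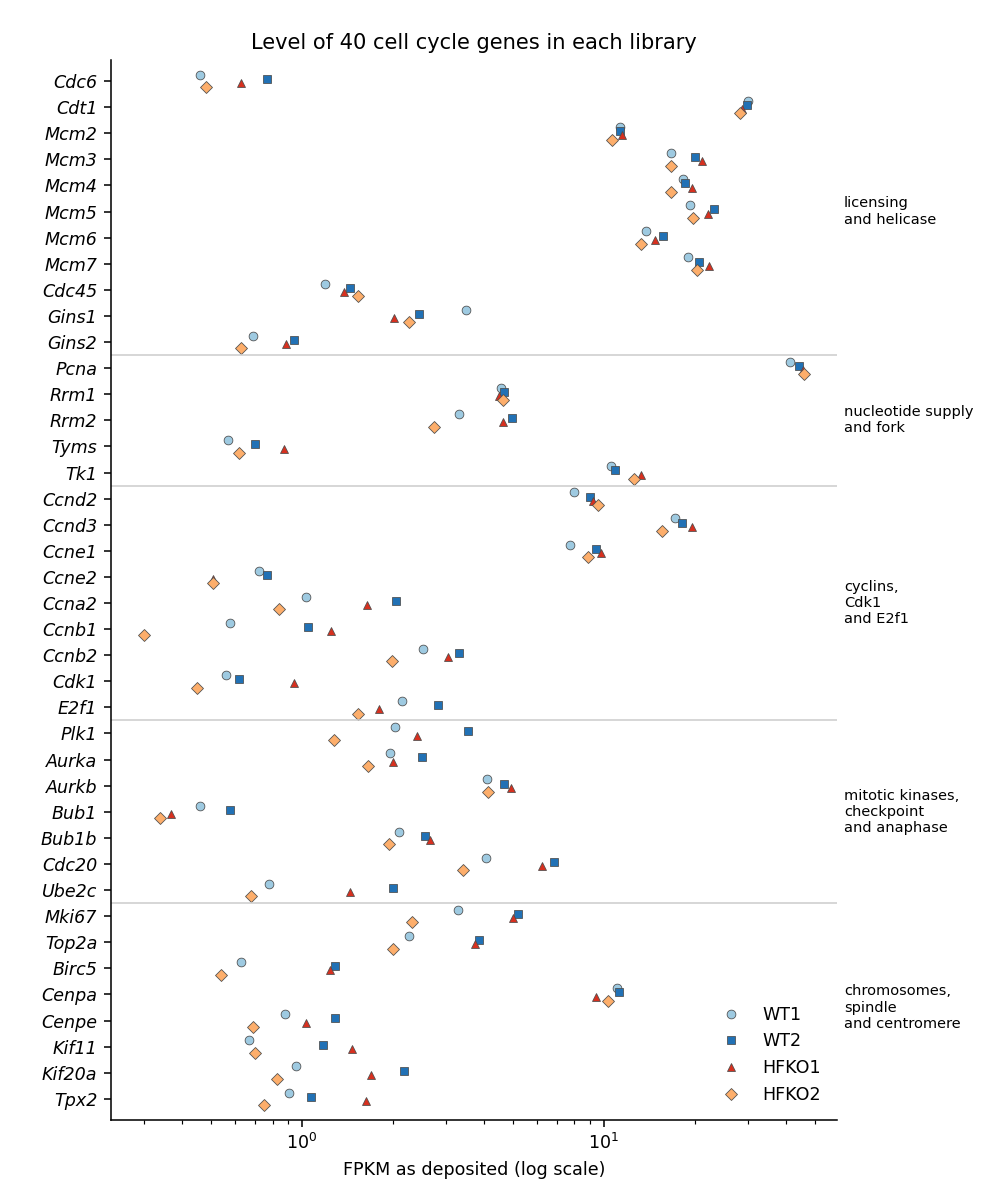
Level of each of the 40 genes in FPKM (log axis) in WT1, WT2, HFKO1 and HFKO2, one symbol per library, grouped by role. The Mcm genes, Cdt1 and Pcna lie above 10 FPKM with the 4 libraries close together, whereas many mitotic genes lie near 1 FPKM with WT2 and HFKO1 to the right of WT1 and HFKO2.

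Promoter letters were counted by role. Transcription of mitotic genes is known to be timed by the cell cycle homology region (CHR, letters TTTGAA or TTCGAA), often a short way from CCAAT boxes, while S phase genes are known for E2F sites (letters TTTGGCGC, TTTCCCGC or TTTCGCGC). RefSeq promoters (GRCm38.p6, 250 bases before to 50 after the start) were matched for 31 of the 40 genes. Searched on both strands, the CHR letters were in 10 of 12 promoters of mitosis genes, 83.3%, including 6 of 6 for the mitotic kinase, checkpoint and anaphase genes, against 21.7% of all 27025 genes with a promoter. The E2F letters were in 6 of 8 promoters of licensing and helicase genes and in 0 of the 12 of mitosis genes, against 2.12% of all genes. They were also in 0 of 5 promoters of nucleotide supply and fork genes, which act in S phase too, and the CHR letters were in 3 of the 8 licensing promoters (37.5%). CCAAT was in 11 of the 12 and 6 of the 8, against 41.1%. A match of letters is a description and not a proven site, and such letters can overlap each other, as in Mcm6.

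The 150 bases before the start are shown, 5′ to 3′ in the direction of the gene, for 4 mitosis genes and 2 helicase genes. The mitosis genes were ranked by the smaller of their 2 ratios between libraries of the same genotype. They are the top 4 among genes with a matched promoter and no annotated exon in this window. Ube2c, Kif20a, Plk1 and Cdc20 ranked above some of them and were passed over on these grounds. The helicase genes were taken only from genes with E2F letters in this window, so those letters follow from the choice. They are the 2 of these that differed least, but Cdt1 and Mcm7 differed less than Mcm5 and Mcm6. Genes whose window held an annotated exon were passed over. Capitals mark CCAAT, CHR and E2F letters on either strand, and Birc5 has none of them in this window.
Birc5, chr11:117849087-117849236 (+): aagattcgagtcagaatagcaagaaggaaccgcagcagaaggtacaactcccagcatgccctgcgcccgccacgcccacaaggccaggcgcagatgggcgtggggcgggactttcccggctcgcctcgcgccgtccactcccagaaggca
Kif11, chr19:37376232-37376381 (+): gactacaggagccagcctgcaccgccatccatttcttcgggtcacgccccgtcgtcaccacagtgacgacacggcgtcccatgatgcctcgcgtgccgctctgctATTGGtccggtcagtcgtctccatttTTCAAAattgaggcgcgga
Top2a, chr11:99024190-99024339 (-): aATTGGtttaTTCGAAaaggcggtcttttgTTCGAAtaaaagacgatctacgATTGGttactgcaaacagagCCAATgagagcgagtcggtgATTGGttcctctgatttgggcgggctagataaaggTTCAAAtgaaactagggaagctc
Mki67, chr7:135716380-135716529 (-): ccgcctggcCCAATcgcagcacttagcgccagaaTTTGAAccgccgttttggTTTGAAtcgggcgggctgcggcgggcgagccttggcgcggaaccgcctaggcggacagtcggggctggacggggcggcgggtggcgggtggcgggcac
Mcm5, chr8:75109359-75109508 (+): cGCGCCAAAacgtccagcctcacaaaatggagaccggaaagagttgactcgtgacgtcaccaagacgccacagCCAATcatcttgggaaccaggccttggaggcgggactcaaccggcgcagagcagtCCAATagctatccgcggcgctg
Mcm6, chr1:128359706-128359855 (-): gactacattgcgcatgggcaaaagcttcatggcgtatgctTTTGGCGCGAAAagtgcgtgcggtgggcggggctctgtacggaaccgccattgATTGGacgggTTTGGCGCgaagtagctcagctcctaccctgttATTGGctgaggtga

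The question the design puts to these genes is whether resting FOB cells that lack hnRNP F express a different level of the cell cycle programme. One of the 40 genes passed the test. Tk1, thymidine kinase, which salvages thymidine for DNA synthesis, had 897 and 1069 counts in WT1 and WT2 against 1080 and 1181 in HFKO1 and HFKO2. Scaled to library size (CPM, the count in each 1000000 reads), these were 54.9 and 56.2 against 68.9 and 65.9, so the genotypes did not overlap. Tk1 rose by 21.3% (log2 fold change 0.28, SE 0.07, 95% interval 0.12 to 0.43, edgeR quasi-likelihood adjusted p = 0.0331). That call was lost with DESeq2 (adjusted p = 0.115), with limma on log2 FPKM (0.147) and when WT1 (0.0875), HFKO1 (0.179) or HFKO2 (0.0523) was left out, while the fold change stayed between 0.25 and 0.31.

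No gene of the list fell past the threshold by edgeR, and DESeq2 (40 genes tested) and limma on log2 FPKM (39 tested, as Bub1 was below its level minimum) called 0 in either direction. Over all genes DESeq2 called 370 higher and 251 lower of 23692. For limma these were 29 higher and 16 lower of 13570 on the log2(FPKM + 0.1) scale, far fewer than edgeR. Over all 14123 genes tested, 4.15% were called higher and 2.83% lower, so the count of 1 in 40 higher and 0 in 40 lower was no larger than that background. At an unadjusted p under 0.05 there were 3 of the 40, against 20.3% of all genes, namely Tk1, E2f1 and Ccnd2. The libraries of the 2 genotypes did not overlap in CPM for 10 of the 40 (4 higher and 6 lower in HFKO), against 50.1% of all genes. The median log2 fold change of the 40 was -0.08, beside -0.00 for all genes tested, and 27 of the 40 lay below 0. With 2 libraries against 2, an exact two-sided permutation test of a single value cannot go below p = 0.333.

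**Figure D2:**
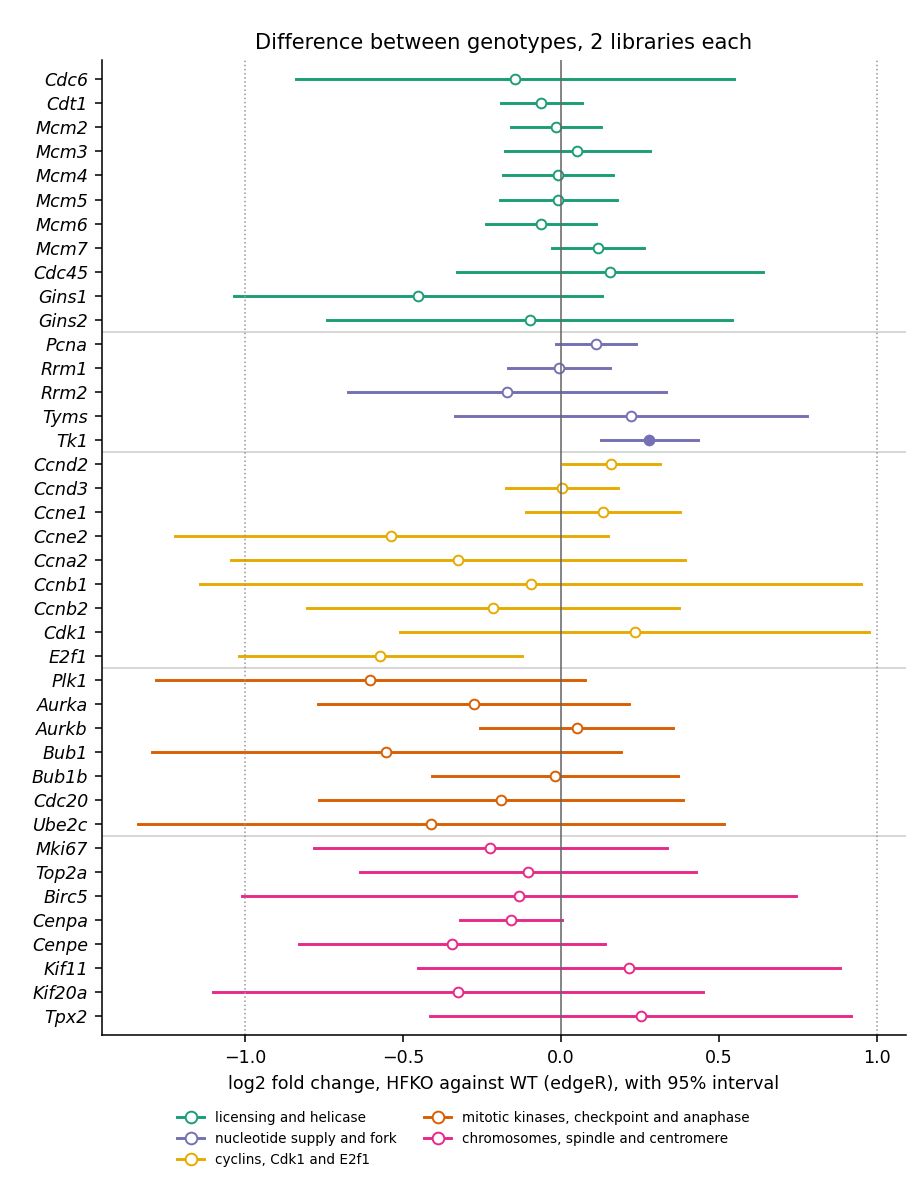
Log2 fold change of HFKO against WT for each gene from the edgeR fit, with its 95% interval, grouped by role. Dotted lines mark a 2-fold change and the filled symbol is Tk1, the one called gene. The intervals are short for the Mcm genes, Pcna and Cdt1 and long for the mitotic genes.

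How much the data can say differs by gene. For the 14 genes that averaged 500 counts or more the median SE was 0.07, and all 14 intervals lay within a 2-fold change either way. For the 26 genes with fewer counts the median SE was 0.28, and 16 of the 26 intervals lay within 2-fold. A modest change in most mitotic genes was therefore not detectable with these libraries.

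Among licensing and helicase genes, Cdt1 and the Mcm genes were measured with SEs of 0.06 to 0.11. Cdt1, which with Cdc6 loads the Mcm2-7 ring onto origins, had 94.5 and 93.3 CPM in WT and 90.4 and 89.4 in HFKO. The groups did not overlap, yet the difference was small (log2 fold change -0.06, 95% interval -0.19 to 0.07, adjusted p = 0.617). Mcm2, Mcm4 and Mcm5, subunits of that ring, had log2 fold changes of -0.02, -0.01 and -0.01, and all their intervals ended within 0.20 of 0. Mcm3 was at 62.6 and 74.9 CPM in WT and 79.7 and 63.2 in HFKO, so WT2 and HFKO1 were the high libraries. Mcm6 had the same order, at 64.6 and 72.9 against 69.2 and 62.5. Mcm7 was at 84.4 and 90.6 CPM in WT and 99.0 and 91.1 in HFKO (log2 fold change 0.12, adjusted p = 0.362).

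The remaining licensing genes were scarce. Gins1, a subunit of the GINS complex that joins Cdc45 and the Mcm ring into the active helicase, had 87 and 70 counts in WT against 48 and 62 in HFKO (log2 fold change -0.45, 95% interval -1.04 to 0.13, adjusted p = 0.379). In CPM both HFKO libraries of Gins1 were below both WT libraries. Cdc6 had 39 and 76 against 52 and 45 counts, Cdc45 had 68 and 96 against 76 and 97, and Gins2 had 46 and 73 against 57 and 47. For Cdc6, Cdc45 and Gins2 the genotypes overlapped. Exons of Gse1 on the opposite strand cover 67.3% of the exonic bases of Gins2, and the library kit does not mark strand, so the Gins2 count is uncertain.

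Nucleotide supply genes gave the one call, and their other members did not pass. Pcna was at 99.5 and 105 CPM in WT and 110 and 111 in HFKO, without overlap (log2 fold change 0.11, 95% interval -0.02 to 0.24, adjusted p = 0.320). Rrm1, the large subunit of ribonucleotide reductase, was at 50.4 and 51.3 CPM in WT and 49.8 and 51.4 in HFKO, a log2 fold change of -0.01. Rrm2, the small subunit whose synthesis rises in S phase, was at 9.17 and 13.7 CPM in WT and 12.9 and 7.65 in HFKO. So the steady subunit was level in the 4 libraries and the S phase subunit was high in WT2 and HFKO1. Tyms, thymidylate synthase, had 57 and 81 counts in WT against 83 and 68 in HFKO (log2 fold change 0.22, SE 0.26).

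Among the cyclins and their partners, those of G1 were abundant. Ccnd3 (cyclin D3) was the most abundant cyclin in FPKM, with 151 and 158 CPM in WT and 172 and 138 in HFKO, a log2 fold change of 0.00. Ccnd2 (cyclin D2) was at 74.8 and 84.3 CPM in WT and 87.0 and 90.8 in HFKO, without overlap (log2 fold change 0.16, 95% interval 0.01 to 0.31, unadjusted p = 0.0437 and adjusted p = 0.228 by edgeR). Ccne1 (cyclin E1) was at 20.6 and 24.9 CPM in WT and 26.2 and 23.9 in HFKO. Ccne2 (cyclin E2) had 41 and 51 counts in WT against 28 and 32 in HFKO (log2 fold change -0.54, 95% interval -1.22 to 0.15). Exons of Ints8 on the other strand cover 17.4% of it.

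E2f1, the activating E2F factor, had 111 and 169 counts in WT against 89 and 88 in HFKO, or 6.79 and 8.88 CPM against 5.68 and 4.91. Both HFKO libraries were below both WT libraries (log2 fold change -0.57, SE 0.21, 95% interval -1.02 to -0.13, unadjusted p = 0.0159), but the adjusted p by edgeR was 0.127. Ccna2 (cyclin A2) had 69 and 158 counts in WT against 105 and 62 in HFKO. Ccnb1 (cyclin B1) had 40 and 84 against 83 and 23, and Ccnb2 (cyclin B2) had 63 and 96 against 73 and 55. Cdk1, the kinase these cyclins activate, had 45 and 58 against 73 and 40. In all 4, the highest HFKO library was HFKO1 and the highest WT library was WT2.

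Mitotic kinases, checkpoint and anaphase genes were all scarce, at means of 33.2 to 227 counts. Plk1, Polo-like kinase 1, had 73 and 147 counts in WT against 83 and 51 in HFKO, the most negative log2 fold change of the 40 at -0.60 (95% interval -1.28 to 0.08, adjusted p = 0.308). A processed copy, Plk-ps1, matches Plk1 at 93.5% identity over 1813 bases and had 73, 53, 45 and 47 counts of its own in WT1, WT2, HFKO1 and HFKO2, so reads of the pair may be split. Bub1 had 33 and 48 counts in WT against 25 and 27 in HFKO, without overlap (log2 fold change -0.55, SE 0.34). Bub1b, which encodes the checkpoint protein BubR1, had 147 and 207 against 178 and 150.

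Aurka and Aurkb encode the Aurora kinases of the spindle poles and of the centromere. Aurka had 81 and 120 counts in WT against 80 and 76 in HFKO. Aurkb had 198 and 261 against 228 and 220 (log2 fold change 0.05, SE 0.14). Cdc20, the activator of the anaphase-promoting complex, had 125 and 242 against 183 and 115, and Ube2c, the ubiquitin-conjugating enzyme that works with that complex, had 33 and 99 against 59 and 32. For Cdc20 and Ube2c the libraries of each genotype lay further apart than the genotype means.

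Chromosome, spindle and centromere genes formed the last group. Mki67, which encodes the proliferation marker Ki-67, had 541 and 991 counts in WT against 788 and 422 in HFKO. In CPM these were 33.1 and 52.1 against 50.3 and 23.6 (log2 fold change -0.22, SE 0.26, adjusted p = 0.683). Without HFKO1 the edgeR fit called Mki67 lower in HFKO (log2 fold change -0.86, adjusted p = 0.00944), and without HFKO2 the change was 0.23 in the other direction, so the call depended on which HFKO library was kept. Top2a, topoisomerase II alpha, which untangles sister chromatids, had 334 and 660 against 529 and 326 counts. Birc5 (survivin, a partner of Aurora B) had 35 and 83 against 66 and 33.

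The kinesins followed. Kif11, which pushes spindle poles apart, had 82 and 167 counts in WT against 172 and 95 in HFKO. Kif20a, a kinesin of cytokinesis, had 68 and 179 against 116 and 65, and exons of Cdc23 on the opposite strand cover 29.3% of it. Cenpe, the kinetochore kinesin, had 124 and 211 against 139 and 107. Tpx2, which activates Aurora A on the spindle, had 70 and 95 against 120 and 63. In these 4, WT2 was above WT1 and HFKO1 above HFKO2. Cenpa did not share that order, with 64.8 and 65.2 CPM in WT and 55.5 and 61.0 in HFKO (log2 fold change -0.16, 95% interval -0.32 to 0.00, adjusted p = 0.259).

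The widest differences in these genes were thus between libraries of the same genotype. Corrected for library size, 37 of the 40 were higher in WT2 than in WT1, 33 were higher in HFKO1 than in HFKO2, and 31 (77.5%) were both, against 27.2% of all genes tested. These directions were read from the values and serve as a description. All 7 of the mitotic kinase, checkpoint and anaphase genes and 7 of the 8 chromosome, spindle and centromere genes were both. So were 7 of the 11 licensing and helicase genes, 3 of the 5 nucleotide supply and fork genes and 7 of the 9 genes of cyclins, Cdk1 and E2f1. These counts go by direction alone, whatever the counting error of a gene. The 95% counting intervals of both ratios included 1 for Aurka, Aurkb, Bub1 and Gins2, as did that of WT2 over WT1 for Bub1b. For Plk1, Cdc20 and Ube2c both intervals lay above 1. The ratio of CPM was largest for Ube2c in WT (WT2 over WT1 2.58, 95% counting interval from 1.72) and for Ccnb1 in HFKO (HFKO1 over HFKO2 4.12, from 2.57). For Mki67 the ratios were 1.57 and 2.13, for Top2a 1.70 and 1.85, for Birc5 2.04 and 2.29, and for Kif20a 2.26 and 2.04. Of the replication genes, Tk1, Pcna, Rrm1, Mcm2 and Cdt1 had ratios between 0.97 and 1.06 in both genotypes. Others of those roles did not, as Mcm3 had ratios of 1.20 and 1.26, Mcm5 1.20 and 1.12, Mcm6 1.13 and 1.11, and Rrm2 1.49 and 1.68.

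Across the 40 genes, log2 WT2/WT1 and log2 HFKO1/HFKO2 were correlated with Pearson's r = 0.757, and across all 14123 genes with r = 0.0869. Genes are not independent replicates, the points share their 4 libraries, and each r rests on a single pair of libraries per genotype. Summed over all 15 mitosis genes, the level was 184 CPM in WT1, 250 in WT2, 232 in HFKO1 and 160 in HFKO2. Cenpa was then left out after its values were seen. Summed over the other 14, the level was 119 CPM in WT1, 185 in WT2, 176 in HFKO1 and 99.5 in HFKO2. The genotype means were 152 ± 46.4 and 138 ± 54.4 CPM (SD, n = 2), a difference far inside the spread between libraries. For the 11 licensing and helicase genes the sums were 542, 584, 592 and 535 CPM, and the genotype means were 563 ± 30.1 and 564 ± 40.5 (SD, n = 2).

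**Figure D3:**
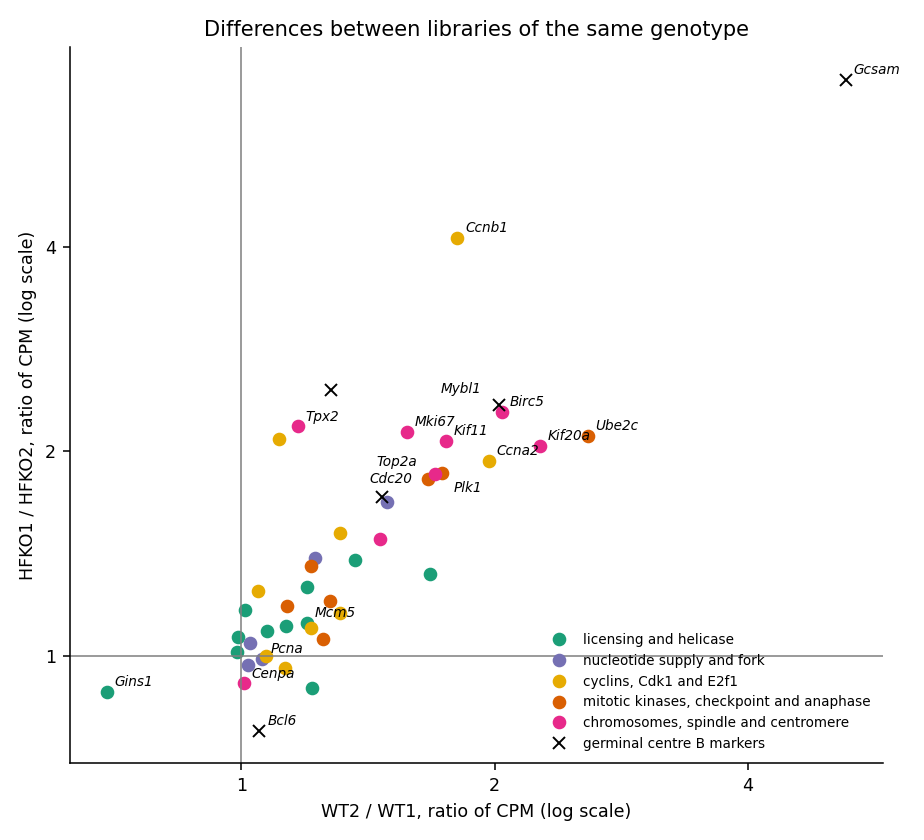
Ratio of CPM between the libraries of each genotype, WT2 over WT1 on the horizontal and HFKO1 over HFKO2 on the vertical axis (both log scale), for the 40 genes by role and for 5 GC B cell markers (crosses). Mitotic genes extend along the diagonal to ratios near 2, Gcsam and Ccnb1 lie further out, and Pcna, Cenpa and Bcl6 sit near 1 on the horizontal axis.

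Most markers of GC B cells moved between libraries in the same order. Gcsam, which encodes a GC-expressed signalling protein, had 12 and 73 counts in WT against 37 and 6 in HFKO. Mybl1, a Myb-family transcription factor, had 65 and 153 against 84 and 41. S1pr2 and Fas had the same order. Bcl6, the GC master repressor, which resting B cells also transcribe, had 2234 and 2730 against 1583 and 2333 and did not follow. Of the 5 markers, 4 were higher in both WT2 and HFKO1. Summed over all 5, where Bcl6 holds most of the counts, they were at 150 and 167 CPM in WT and 119 and 138 in HFKO, so HFKO1 was below HFKO2. Summed without Bcl6, left out after its values were seen, they were at 13.1 and 23.2 CPM in WT and 17.5 and 7.42 in HFKO, and no marker of the 5 was at 0. All 5 had a log2 fold change below 0 by edgeR, from -0.83 to -0.21 with a median of -0.66 and a median SE of 0.33. None was called between genotypes by edgeR, DESeq2 or limma, and 1 of the 5 (Bcl6) had an unadjusted p under 0.05 by edgeR. Their part in the mitotic levels was not tested.

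Among markers of other cells, the summed T cell and myeloid markers had other orders. The summed T cell markers were 20.7 and 31.0 CPM in WT and 16.8 and 26.1 in HFKO, highest in WT2 and next in HFKO2, and 0 of 5 were called. Summed myeloid markers were 21.5 and 25.7 in WT and 27.7 and 39.2 in HFKO, where S100a8 (log2 fold change 1.53) and S100a9 (1.34) rose and the other 4 of 6 were not called. The calls of S100a8 and S100a9 were kept with DESeq2 and lost with limma. Summed plasma cell markers were 328 and 351 CPM in WT and 326 and 324 in HFKO. WT2 and HFKO1 were thus the higher libraries, in HFKO by little. Of these 5 markers, 2 were higher in both WT2 and HFKO1, namely Jchain (ratios 3.44 and 1.24) and Xbp1 (1.13 and 1.18). Plasma cell markers were called in 0 of 5, and erythroid markers in 0 of 4 tested. Among marginal zone markers, Cr2, whose CD21 protein was sorted low, fell by 0.47 on the log2 scale, Dtx1 fell by 0.23 and Cd1d1 rose by 0.34 (adjusted p = 0.0014, 0.0229 and 0.0163 by edgeR). Limma called 0 of the 5 marginal zone markers.

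**Figure D4:**
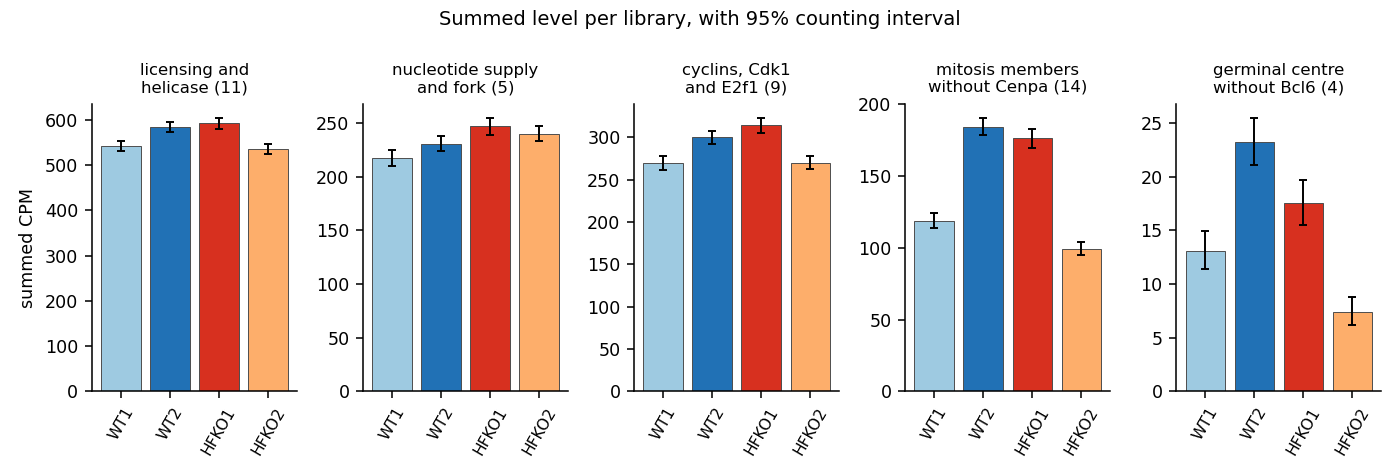
Summed CPM of each group of genes in the 4 libraries, with exact 95% Poisson intervals that cover counting error only (number of genes in brackets). Mitosis genes without Cenpa and GC markers without Bcl6 are high in WT2 and HFKO1 and low in WT1 and HFKO2. Helicase and nucleotide genes differ less. Cenpa and Bcl6 were left out after their values were seen.

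Other genes of the same pathways were taken from lists chosen by function. Of 44 further replication genes, 1 rose and 1 fell by edgeR. Called genes were thus 4.55% of the list in both directions together, against 4.15% called higher and 2.83% lower over all genes tested. Rfc2, a subunit of the clamp loader that places Pcna on DNA, had 1819 and 2174 counts in WT against 2145 and 2417 in HFKO (log2 fold change 0.27, SE 0.06, adjusted p = 0.0107). Pold1, the catalytic subunit of DNA polymerase delta, had 5138 and 5717 against 3830 and 4711 and fell by 0.28 (SE 0.05, adjusted p = 0.00855). Dnmt1, the maintenance DNA methyltransferase, was the most abundant of those not called, at 26.6 FPKM with a log2 fold change of -0.13 (adjusted p = 0.178). The list median was -0.04, and both calls were lost with limma on log2 FPKM. By edgeR, Pold1 was also lost without HFKO1 (adjusted p = 0.0710) and Rfc2 without WT1 (0.0519).

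Of 48 further mitosis genes, 0 were called by edgeR, DESeq2 or limma, and 1 had an unadjusted p under 0.05 in the edgeR fit and 0 in the other fits. The 3 most abundant were Anapc5, Smc4 and Hmgb2, with log2 fold changes of 0.04, -0.07 and -0.23. Most of the list repeated the order of the libraries, since 38 of the 48 (79.2%) were higher in both WT2 and HFKO1. Of the 3 named, Anapc5 was lower in WT2 (WT2 over WT1 0.953) and Smc4 was lower in HFKO1 (HFKO1 over HFKO2 0.901). Summed over the list, the ratios were small, at 1.05 in WT and 1.09 in HFKO. Of the 44 replication genes, 25 (56.8%) were higher in both WT2 and HFKO1, against 27.2% of all genes tested. The third list, of regulators and quiescence genes, lay nearer to that share, with 15 of 45 (33.3%).

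Regulators of entry into and exit from the cycle formed the third list, and 4 of its 45 tested genes rose while none fell. Myc, the growth-promoting transcription factor, had 1500 and 1992 counts in WT against 1966 and 2140 in HFKO (log2 fold change 0.32, SE 0.07, adjusted p = 0.0146). Btg2, an antiproliferative factor, had 4448 and 5053 against 5441 and 5980 (0.34, SE 0.05, adjusted p = 0.0013). Foxm1, a transcription factor of G2 and mitosis genes, had 205 and 245 against 313 and 300 (0.53, SE 0.13, adjusted p = 0.0268). Tfdp1, the partner of E2F proteins, had 558 and 772 against 747 and 833 (0.33, SE 0.09, adjusted p = 0.0488).

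The 4 that rose do not act in one direction on the cycle, as Myc and Foxm1 promote it and Btg2 restrains it. Called genes were 8.89% of that list, all higher, against 4.15% called higher and 2.83% lower over all genes, and its median log2 fold change was 0.00. With DESeq2, Foxm1 and Tfdp1 were no longer called (adjusted p = 0.121 and 0.147), while Myc and Btg2 were. With limma on log2 FPKM none of the 4 was. Leaving out a library also ended calls of edgeR: Myc was lost without WT1 (adjusted p = 0.0956) or HFKO1 (0.0686), Foxm1 without WT1 (0.0653), WT2 (0.0509) or HFKO1 (0.195), and Tfdp1 without WT1 (0.258), HFKO1 (0.151) or HFKO2 (0.0798). Btg2 was kept in each of these fits. Klf2, a quiescence factor of resting lymphocytes, was the most abundant of the list at 221 FPKM, with a log2 fold change of -0.04.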

How the data were processed

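Poly(A) RNA of sorted FOB cells was sequenced as read pairs. Per the labels and the study's methods, the authors trimmed reads with cutadapt 1.9.1, aligned them with HISAT2 2.0.1 to GRCm38 and counted them per gene with HTSeq 0.6.1. The deposited table holds raw counts and FPKM for each library. FPKM was used to set levels of different genes side by side.

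Counts were tested with edgeR 4.0.16 (R 4.3.3): filterByExpr, TMM, quasi-likelihood fit of HFKO against WT on 4 libraries, Benjamini-Hochberg adjustment over 14123 genes, threshold 0.05. TMM factors ran from 0.992 to 1.01, and CPM uses them. DESeq2 1.42.0 and limma 3.58.1 (log2(FPKM + 0.1) and log2(FPKM + 1), mean FPKM of at least 0.5) were alternatives. Ratios between libraries carry 95% binomial intervals. The edgeR step was tested on simulated data with 200 changed genes. These were well counted genes given large folds, so that test does not cover scarce genes or modest changes. Overlapping exons were read from GENCODE, near-identical transcripts were searched with blastn 2.17.0 (identity of at least 90% over 20% of the transcript), and promoters came from RefSeq.

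All members could be named. Of each other replication, mitosis and regulator list, genes at an adjusted p of at most 0.05 were named. Where these were fewer than 3, the rule was to name the 3 of highest mean FPKM. Beside the called genes, Klf2 was named as the most abundant regulator and Dnmt1 as the most abundant replication gene not called. Of cell type markers, those needed to describe the list were named. The members and lists were chosen with earlier results of these data known. The deposited splicing table holds the authors' own comparison (FDR and inclusion level differences) and was not used. Some marker genes are not reported here.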

Additional observations from a re-analysis of the deposited data

How the results depend on the processing

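The count of 1 gene of the 40 called higher (Tk1) stayed 1 with RLE size factors, with no filter and with a minimum of 10 counts in every library. It was 0 with DESeq2, with limma on either FPKM scale, with the replicate block, with the threshold at 0.01 and with a 2-fold minimum. Leaving out each library in turn gave 0 to 1 called higher and 0 to 1 called lower (Mki67, without HFKO1), and a median log2 fold change from -0.36 (without HFKO1) to 0.15 (without WT2), around the -0.08 of the whole set. In those fits the lone library of a genotype is assumed to vary like the pair. Of 278 values of single members with all libraries kept, 271 held direction and side of the threshold. The log2 fold change of Ccnd3 turned from 0.00321 to -0.0143 and -0.0132 with limma and to -0.00357 with the replicate block.

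Leaving out a library turned the direction of 25 members, with these lowest and highest log2 fold changes: Cdc6 -0.46 to 0.29, Mcm2 -0.0616 to 0.0274, Mcm3 -0.12 to 0.21, Mcm4 -0.12 to 0.098, Mcm5 -0.13 to 0.13, Mcm6 -0.15 to 0.031, Gins2 -0.35 to 0.15, Rrm1 -0.0312 to 0.0172, Rrm2 -0.58 to 0.17, Tyms -0.0313 to 0.45, Ccnd3 -0.16 to 0.15, Ccna2 -0.86 to 0.26, Ccnb1 -1.42 to 0.61, Ccnb2 -0.54 to 0.0604, Cdk1 -0.38 to 0.68, Aurkb -0.0732 to 0.17, Bub1b -0.25 to 0.19, Cdc20 -0.67 to 0.24, Ube2c -1.03 to 0.45, Mki67 -0.86 to 0.23, Top2a -0.61 to 0.34, Birc5 -0.83 to 0.49, Kif11 -0.39 to 0.69, Kif20a -0.91 to 0.40, Tpx2 -0.40 to 0.72. Most of the lowest came without HFKO1. The labels number the libraries of each genotype 1 and 2 without saying that a number marks a shared animal or day. The deviations of WT1 and HFKO1 from their genotype means correlated at r = -0.0686 across genes, so the numbers were not taken as pairs, and the replicate block left Tk1 at an adjusted p of 0.0829, Foxm1 at 0.0528 and Tfdp1 at 0.0884 (edgeR). Stricter thresholds for splicing events were not run, since the splicing table was not used. The median SE of the log2 fold change was 0.28 in the 26 members under 500 counts and 0.07 in the other 14, though Mki67, one of those 14, had 0.26.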

Other observations

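Genes outside the lists shared the order in which WT2 was above WT1 and HFKO1 above HFKO2. They were chosen after their values were seen, by the smaller log2 ratio of CPM + 0.5 in either genotype, among 12531 genes that averaged 20 counts or more. Of the 20 genes at the top, 5 were among the 40 cell cycle genes, 2 were GC markers, 3 came from the other lists and 10 from none. Ighg1, the heavy chain constant gene of IgG1, had 141 and 423 counts in WT1 and WT2 and 223 and 92 in HFKO1 and HFKO2. Mef2b, a transcription factor known from GC B cells, had 49 and 149 against 74 and 31. Nuggc, a nuclear GTPase also known from GC B cells, had 17 and 62 against 46 and 6. Pif1, a DNA helicase, had 19 and 60 against 40 and 14, and Fscn1, an actin-bundling protein, had 25 and 84 against 72 and 39. Tgfb3 had 38 and 112 against 80 and 44. The ratios were chosen for their size, so they carry no test.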
